A study of Homo sapiens with 6 samples.

Results

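The enzymes that write and remove cytosine methylation were followed as 7 genes: the DNA methyltransferase genes DNMT1, DNMT3A and DNMT3B, the genes of the dioxygenases TET1, TET2 and TET3, and TDG, the thymine DNA glycosylase gene. They were taken by gene symbol from a table of 58735 genes, each symbol matched 1 row, and all 7 had enough reads to be among the 15400 genes tested. Human ovarian carcinoma cells were compared as 3 libraries of BARD1-expressing cells and 3 of control cells, all labelled 48 h. The labels give the cell type as high grade serous adenocarcinoma of the ovary. The BARD1-expressing cells are described as stable and were made by lentiviral transduction of OVCAR8 cells with the BARD1 reading frame, in a protocol that also mentions a GFP-BARD1 fusion. The control carries the genotype label control and the same treatment label of stable cells, with no vector named. Titles name OVCAR8ip1 cells and the cell line tag SKOV3ip1, with tumors of SKOV3ip1 given as the source, so the line and whether cells or tumors were sampled are in conflict. The labels do not say whether a group is a single clone or a pool, and an effect of BARD1 cannot be told apart from other differences between the transduced and the control cells.

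DNMT1 copies methylation onto the new strand after replication, at CpG dinucleotides that are methylated on the old strand only, and is guided there by UHRF1. DNMT3A and DNMT3B set methylation on unmethylated DNA. TET enzymes oxidise the methyl group, using 2-oxoglutarate and iron, and TDG cuts out the most oxidised forms, after which base excision repair puts back plain cytosine. The series title concerns epigenetic regulation of BARD1 in resistance to anti-VEGF therapy, and its design text asks how BARD1 expression bears on tumor angiogenesis pathways. BARD1 pairs with BRCA1 to form a ubiquitin ligase.

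DNMT3B was higher in BARD1-expressing cells than in control cells, by 1.31-fold, and DNMT1 and TDG were lower, at 0.897-fold and 0.856-fold. The other 4 genes, DNMT3A, TET1, TET2 and TET3, did not pass the test. A gene was called at a Benjamini-Hochberg adjusted p under 0.05 in edgeR's quasi-likelihood test over all tested genes, and each log2 fold change compares BARD1-expressing with control cells (positive means higher in BARD1-expressing cells) and is given ± its standard error. Of the 7 genes 1 was called higher and 2 lower, beside 29.0% of all tested genes called in either direction, 16.5% higher and 12.4% lower. An unadjusted p under 0.05 was reached by 4 of the 7 and by 38.6% of all tested genes. With 7 genes these shares are too coarse to set the group apart from the background. In 5 of the 7 genes the groups did not overlap in CPM (counts scaled to 1e6 per library after trimmed mean of M values, TMM, correction), which was so for 40.9% of all tested genes. The median log2 fold change of the 7 was -0.16, against -0.003 over all tested genes.

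**Figure D1:**
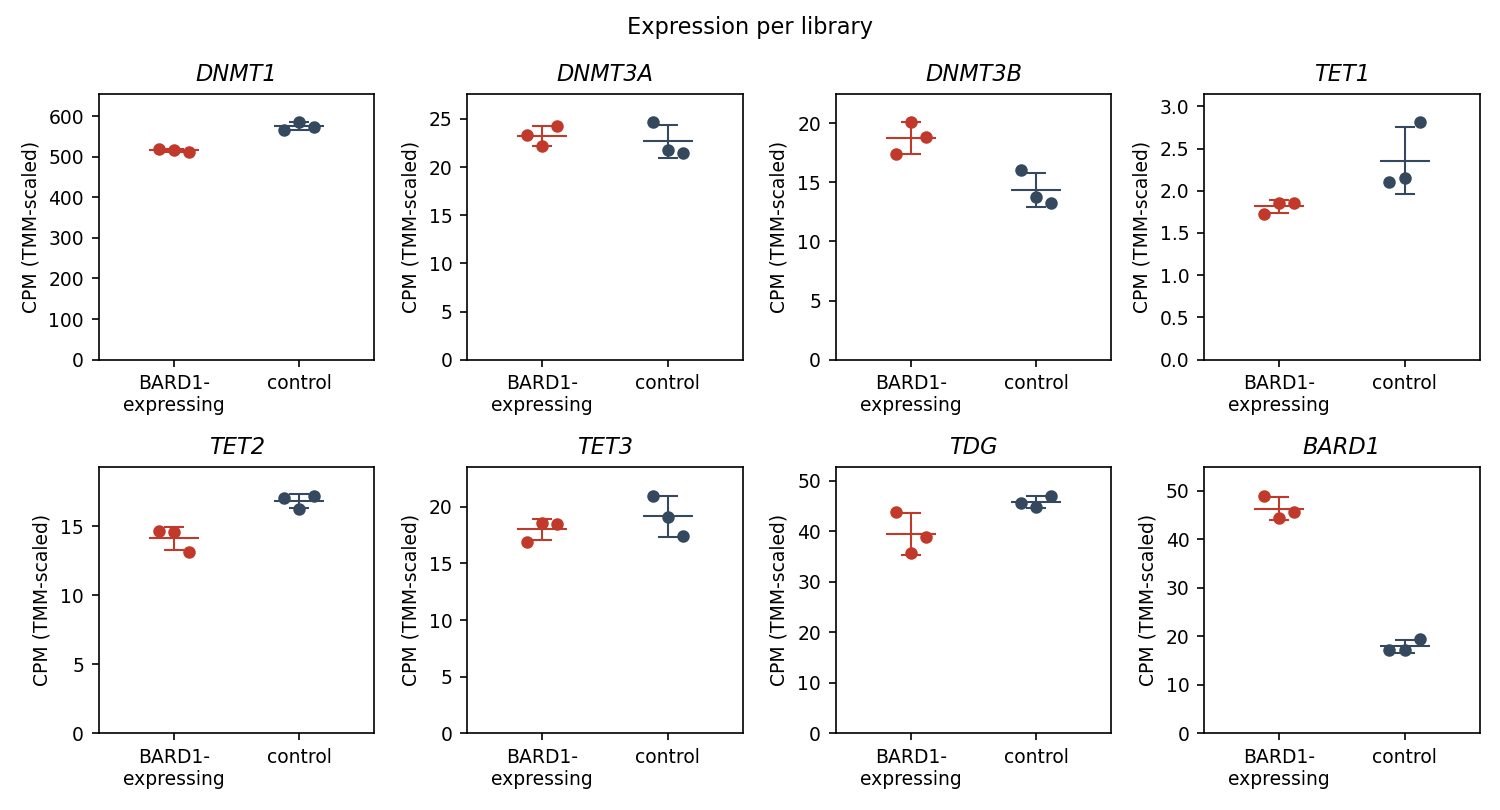
Expression of the 7 genes and of BARD1 in CPM (vertical axes, each from 0) in BARD1-expressing (red, left) and control (dark, right) libraries. Points are libraries 1 to 3 from left to right, and the long bar and whiskers are the mean ± SD (n = 3). BARD1-expressing libraries lie above control libraries for DNMT3B and BARD1 and below them for DNMT1, TET1, TET2 and TDG, and the groups overlap for DNMT3A and TET3.

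Library totals were 12744310 to 24349158 reads in BARD1-expressing cells and 21819199 to 23992482 in control cells. BARD1 itself, at 46.3 ± 2.43 CPM in BARD1-expressing cells and 17.9 ± 1.30 CPM in control cells (SD, n = 3 each), had a log2 fold change of 1.37 ± 0.081 (edgeR adjusted p = 4.67e-12). Introduced and endogenous BARD1 reads were not separated. Of 10 carcinoma and serous lineage markers 8 were tested, while MUC16 and KRT19 had no read in any library. Of these 8, edgeR called 37.5%, beside 29.0% of all tested genes, and DESeq2 called 2. By edgeR 2 were higher, KRT7 (0.34 ± 0.049) and WT1 (1.43 ± 0.470), and 1, PAX8, was lower (-0.65 ± 0.061). WT1 had 5, 43 and 11 reads in BARD1-expressing and 7 to 10 in control libraries. The keratin gene KRT8 averaged 2013 CPM in BARD1-expressing and 2078 CPM in control cells, and EPCAM, a surface protein of epithelial cells, had a log2 fold change of -0.02 ± 0.090. ERBB2, which is amplified in SKOV3 cells, averaged 104 CPM in BARD1-expressing and 95.7 CPM in control cells. The 8 endothelial markers summed to 5.27 to 7.72 CPM in BARD1-expressing libraries and 1.98 to 2.399 CPM in control libraries, with EMCN at 0. Only 2 were tested, KDR and TIE1, and both were higher by edgeR, beside 16.5% of all tested genes called higher. DESeq2 called 1 of the 2. KDR had 11, 14 and 16 reads in BARD1-expressing and 5, 5 and 8 in control libraries. TIE1 had 46, 151 and 56 reads in BARD1-expressing and 27, 29 and 30 in control libraries. The 9 fibroblast and pericyte markers summed to 840 to 888 CPM in BARD1-expressing libraries and 1015 to 1083 CPM in control libraries. Nearly all of it was COL1A1, which was lower, and DCN was at 0. Of 5 tested, LUM, PDGFRB and ACTA2 were higher and COL1A1 lower by edgeR, 80.0% called beside 29.0% of all tested genes. DESeq2 called 3 of the 5 in either direction. LUM had 14, 15 and 10 reads in BARD1-expressing and 7, 3 and 3 in control libraries. ACTA2 had 8, 23 and 11 reads in BARD1-expressing and 11, 3 and 7 in control libraries. PDGFRB had more, with 163, 333 and 221 reads in BARD1-expressing and 134, 104 and 94 in control libraries. PDGFRB lies on chromosome 5, where 32.4% of tested genes were higher. The 7 leukocyte markers summed to 0.865 to 2.12 CPM in BARD1-expressing libraries and 0.788 to 1.16 CPM in control libraries, with CD3E at 0 and PTPRC at 1 read in all. The part of these markers in the results below was not tested. In bulk RNA, fewer cells that express a gene and less RNA per cell cannot be told apart.

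For the 3 genes that passed the test, promoter windows at an annotated start are shown for their CpG, the dinucleotide on which these enzymes act. All 3 genes have 1 window each in the table. Each is 300 bases from RefSeq (GRCh38.p14), from 250 bases before to 50 after an annotated start, with CpG in capitals. They are chr20:32779602-32779901 on the plus strand, chr19:10194904-10195203 on the minus strand and chr12:103965622-103965921 on the plus strand.

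DNMT3B promoter: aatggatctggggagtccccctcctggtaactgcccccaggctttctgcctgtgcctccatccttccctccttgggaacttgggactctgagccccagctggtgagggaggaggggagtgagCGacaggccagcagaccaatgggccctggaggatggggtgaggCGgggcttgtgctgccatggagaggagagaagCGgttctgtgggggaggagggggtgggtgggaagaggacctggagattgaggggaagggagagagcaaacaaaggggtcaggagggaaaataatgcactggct
DNMT1 promoter: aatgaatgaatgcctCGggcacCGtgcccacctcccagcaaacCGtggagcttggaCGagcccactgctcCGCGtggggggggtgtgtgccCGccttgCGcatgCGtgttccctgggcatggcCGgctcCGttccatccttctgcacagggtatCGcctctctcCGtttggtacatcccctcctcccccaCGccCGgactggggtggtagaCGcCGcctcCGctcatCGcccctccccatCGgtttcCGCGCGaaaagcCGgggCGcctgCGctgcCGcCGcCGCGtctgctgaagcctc
TDG promoter: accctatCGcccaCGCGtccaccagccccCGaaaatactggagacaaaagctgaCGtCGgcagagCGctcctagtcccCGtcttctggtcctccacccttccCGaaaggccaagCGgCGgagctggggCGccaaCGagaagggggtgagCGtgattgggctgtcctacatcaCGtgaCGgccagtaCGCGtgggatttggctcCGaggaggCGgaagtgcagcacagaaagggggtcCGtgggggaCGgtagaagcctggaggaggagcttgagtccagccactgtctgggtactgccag

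The DNMT1 window holds 30 CpG and the TDG window 22, against a median of 14 over 35116 promoter windows of the same length. The DNMT3B window holds 3 CpG, as many as or more than 24.5% of all windows. Both the DNMT3B and the DNMT1 window lie inside the gene as the count table gives it, downstream of its start there. The DNMT3B gene starts at 32762385 there, and its window at 32779602. Neither window need be the promoter in use, so their CpG numbers describe these windows and not the genes. These libraries measure RNA, and no methylation value stands behind these sequences.

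Per gene length, DNMT1 was the most abundant of the 7 in every library. Levels were set by counts divided by the deposited gene length and scaled to 1e6 per library (TPM). DNMT1 had 207 ± 4.89 TPM in BARD1-expressing cells and 225 ± 5.25 TPM in control cells, and TDG 31.8 ± 4.02 TPM in BARD1-expressing and 35.8 ± 0.566 TPM in control cells (SD, n = 3 each). DNMT3B had 16.0 ± 0.823 TPM in BARD1-expressing cells and 11.9 ± 1.23 TPM in control cells, and DNMT3A 7.62 ± 0.461 TPM in BARD1-expressing and 7.22 ± 0.577 TPM in control cells. TET3 had 5.78 ± 0.210 TPM in BARD1-expressing cells and 5.98 ± 0.594 TPM in control cells. TET2 had 3.38 ± 0.215 TPM in BARD1-expressing cells and 3.91 ± 0.096 TPM in control cells, and TET1 0.770 ± 0.020 TPM in BARD1-expressing and 0.970 ± 0.156 TPM in control cells. The order was the same in both groups, and no neighbours in it overlapped over the 3 libraries of a group. The closest neighbours were DNMT3A and TET3, with a ratio of means of 1.32 in BARD1-expressing cells and 1.21 in control cells. The deposited length is that of the gene in the annotation and not of the transcripts present, so a gene with long unused exons is listed too low.

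**Figure D2:**
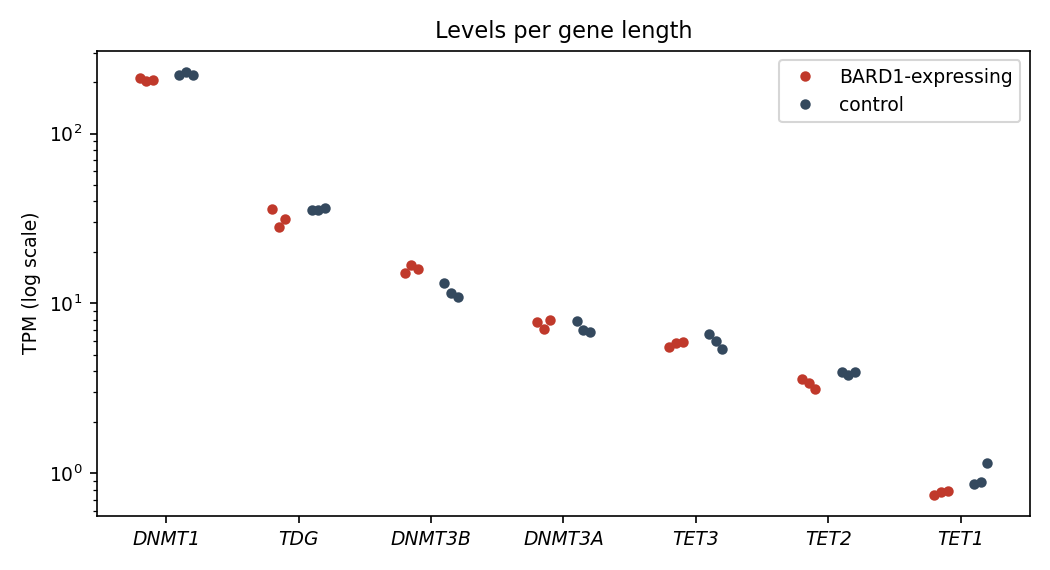
Levels of the 7 genes per gene length in TPM (vertical axis, log scale), with 1 point for each of 3 BARD1-expressing (red, left of each pair) and 3 control (dark, right) libraries. DNMT1 lies near 200 TPM in both groups and TET1 near 1 TPM or under it, in the same order of genes in both groups.

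DNMT1 (ENSG00000130816, chromosome 19, 10133345 to 10231286, minus strand, GRCh38) had 518.5, 517 and 511 CPM in BARD1-expressing libraries 1 to 3 and 565.5, 585.5 and 573 CPM in control libraries 1 to 3. All BARD1-expressing libraries lay below all control libraries, by a margin that was small beside the level. The log2 fold change was -0.16 ± 0.046 with a 95% interval of -0.25 to -0.06 (edgeR adjusted p = 0.0116). With 3 libraries against 3 the exact permutation test (two-sided, on log2 CPM) cannot go below p = 0.1, and it gave this value for DNMT1, DNMT3B, TET1, TET2 and TDG. The call of DNMT1 was lost without BARD1-expressing library 3 (adjusted p = 0.0791) or control library 2 (adjusted p = 0.0765), with log2 fold changes of -0.16 and -0.15. S1PR2, a sphingosine phosphate receptor gene, overlaps DNMT1 on the same strand and had 63 to 101 reads in BARD1-expressing and 104 to 125 in control libraries, beside 6593 to 12528 reads of DNMT1 in BARD1-expressing and 12428 to 13707 in control libraries.

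None of 9 genes that serve maintenance methylation was called (edgeR), beside 29.0% of all tested genes. Of the 9, 2 had an unadjusted p under 0.05, beside 38.6% of all tested genes. DESeq2 called 0 of the 9, and 3611 genes among all with a read, a wider set than the 15400 tested by edgeR. UHRF1, the reader that recruits DNMT1 to half-methylated CpG, averaged 319 ± 13.2 CPM in BARD1-expressing cells and 301 ± 5.18 CPM in control cells (SD, n = 3 each; log2 fold change 0.09 ± 0.049, edgeR adjusted p = 0.201). PCNA, the replication clamp that also binds DNMT1, averaged 327 ± 10.02 CPM in BARD1-expressing cells and 318 ± 7.95 CPM in control cells (SD, n = 3 each; log2 fold change 0.04 ± 0.048, edgeR adjusted p = 0.603). The chromatin remodelling gene HELLS (-0.13 ± 0.057, edgeR adjusted p = 0.098) did not pass either. The ratio of UHRF1 to DNMT1 in TPM was 1.117, 1.21 and 1.21 in BARD1-expressing libraries and 1.02, 0.988 and 0.979 in control libraries, without overlap. The ratio of DNMT1 to PCNA was 0.231, 0.245 and 0.236 in BARD1-expressing libraries and 0.271, 0.280 and 0.263 in control libraries, also without overlap. These ratios are descriptions and were not tested.

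DNMT1 is an S phase gene in cycling cells, so genes of DNA replication were set beside it. Of 24 such genes 4 were higher and 7 lower in BARD1-expressing cells, 45.8% in all, beside 29.0% of all tested genes. Their median log2 fold change was 0.02, against -0.003 over all tested genes. Among the lower ones were TYMS, the thymidylate synthase gene on chromosome 18 (-0.46 ± 0.058), and the replicative helicase gene MCM4 (-0.29 ± 0.049). Among the higher ones were the ribonucleotide reductase gene RRM2 (0.24 ± 0.057) and the helicase gene MCM6 (0.23 ± 0.056). The part of cell cycle differences in the level of DNMT1 was not tested.

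DNMT3B (ENSG00000088305, chromosome 20, 32762385 to 32809356, plus strand) had 17.4, 20.1 and 18.85 CPM in BARD1-expressing libraries and 16.0, 13.8 and 13.3 CPM in control libraries. The groups did not overlap, though BARD1-expressing library 1 and control library 1 lay close to each other. The log2 fold change was 0.39 ± 0.101 with a 95% interval of 0.18 to 0.60 (edgeR adjusted p = 0.00474), the largest departure from 0 among the called genes of the 7. The call held in all 15 alternatives, with log2 fold changes of 0.33 to 0.47 and adjusted p of 0.00118 to 0.038. Counts are per gene, so the catalytically active and inactive splice forms that DNMT3B is known for were not separated.

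DNMT3A (ENSG00000119772, chromosome 2, 25227855 to 25342590, minus strand), which shares its catalytic role with DNMT3B, had 23.3, 22.1 and 24.3 CPM in BARD1-expressing libraries and 24.7, 21.8 and 21.5 CPM in control libraries. The groups overlapped, and the highest value of all 6 was in a control library. By edgeR the difference was 0.03 ± 0.088 on the log2 scale (adjusted p = 0.825), with a 95% interval of -0.15 to 0.21. The ratio of DNMT3B to DNMT3A in TPM was 1.94, 2.36 and 2.01 in BARD1-expressing libraries and 1.68, 1.65 and 1.604 in control libraries. As a share of the summed TPM of the 3 methyltransferase genes, DNMT3B made up 6.40%, 7.36% and 6.98% in BARD1-expressing libraries and 5.47%, 4.62% and 4.54% in control libraries. DNMT1 made up 89.5% to 90.3% in BARD1-expressing and 91.3% to 92.6% in control libraries. DNMT3L, a cofactor without activity of its own that is known from germ cells, had no read in any library, which allows up to 0.124 to 0.236 CPM depending on the library. TRDMT1, a related gene whose enzyme methylates transfer RNA, averaged 8.15 ± 0.456 CPM in BARD1-expressing cells and 8.76 ± 0.300 CPM in control cells (SD, n = 3 each) and was not called (edgeR adjusted p = 0.545).

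**Figure D3:**
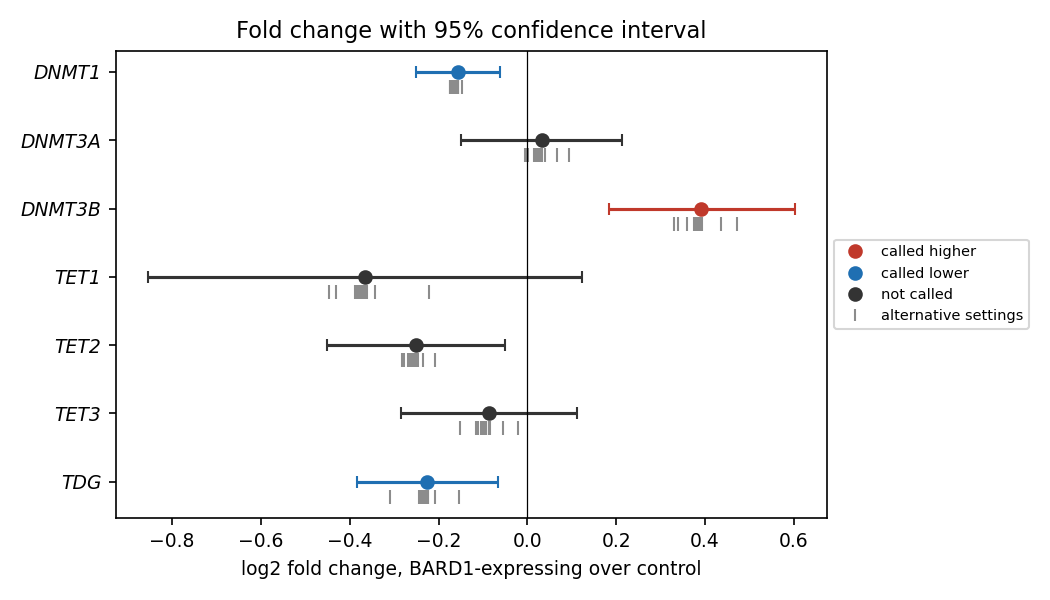
Log2 fold change (horizontal axis, BARD1-expressing over control) of the 7 genes, with the 95% interval from edgeR. Grey ticks are the values under 15 alternative settings. The interval of DNMT3B lies above 0 and those of DNMT1, TET2 and TDG below 0, while those of DNMT3A, TET1 and TET3 span 0. TET2 is not called because its p is adjusted over all tested genes.

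All 3 TET genes had a fold change below 0, and none was called by edgeR. Of the 3, 1 had an unadjusted p under 0.05, beside 38.6% of all tested genes. DESeq2 called 0 of the 3, and 3611 genes among all with a read, a wider set than the 15400 tested by edgeR. TET2 (ENSG00000168769, chromosome 4, 105145875 to 105279816, plus strand) had 14.6, 14.6 and 13.1 CPM in BARD1-expressing libraries and 17.0, 16.2 and 17.2 CPM in control libraries. The groups did not overlap. By edgeR the difference was -0.25 ± 0.097 on the log2 scale (adjusted p = 0.0557, unadjusted p = 0.0166), and it passed the threshold in 5 of 15 alternatives, all of them other scalings or gene sets. TET3 (ENSG00000187605, chromosome 2, 73986404 to 74108176, plus strand), which is known for oxidising the paternal genome of the zygote, had 16.9, 18.6 and 18.5 CPM in BARD1-expressing libraries and 21.0, 19.1 and 17.4 CPM in control libraries. The groups overlapped. Its log2 fold change was -0.09 ± 0.096 with a 95% interval of -0.28 to 0.11 (edgeR adjusted p = 0.548).

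TET1 (ENSG00000138336, chromosome 10, 68560656 to 68694482, plus strand), known for its role in embryonic stem cells, had few reads. It had 22, 45 and 28 reads in BARD1-expressing libraries and 51, 49 and 61 in control libraries, or 1.73, 1.86 and 1.86 CPM in BARD1-expressing and 2.10, 2.15 and 2.81 CPM in control libraries. The groups did not overlap, and the log2 fold change was -0.36 ± 0.236 with a wide 95% interval of -0.85 to 0.12 (edgeR adjusted p = 0.273). It was -0.22 without control library 3. The summed TPM of the 3 TET genes was 9.86, 10.01 and 9.88 in BARD1-expressing libraries and 11.4, 10.7 and 10.5 in control libraries. TET3 made up 56.2% to 60.2% of that sum in BARD1-expressing libraries and 51.3% to 57.6% in control libraries, so the mix of TET transcripts overlapped between the groups.

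Both genes of the CXXC proteins tied to TET2, CXXC4 and CXXC5, were higher in BARD1-expressing cells. TET2 lacks the DNA-binding CXXC domain, which in vertebrates is encoded by the neighbouring gene CXXC4, and CXXC4 and CXXC5 proteins are known to lower TET2 protein. CXXC5 had 136, 320 and 202 reads in BARD1-expressing libraries and 97, 74 and 91 in control libraries, with 12.4 ± 1.51 CPM in BARD1-expressing cells and 3.81 ± 0.505 CPM in control cells (SD, n = 3 each). CXXC5 thus gave a log2 fold change of 1.71 ± 0.142 (edgeR adjusted p = 1.38e-09). CXXC5 lies on chromosome 5, and 9 of its 10 nearest tested protein-coding genes were also higher, with a median log2 fold change of 0.66 and a highest value of 1.26, below that of CXXC5. Over chromosome 5, 32.4% of tested genes were higher. CXXC4 had 13, 14 and 15 reads in BARD1-expressing libraries and 7, 7 and 6 in control libraries, with a log2 fold change of 1.49 ± 0.455 (edgeR adjusted p = 0.0154). Its call was lost in 4 of 15 alternatives, without BARD1-expressing library 1 (adjusted p = 0.0524) or 3 (0.0751), without control library 1 (0.0512) and in DESeq2 (0.0642). Of the 10 genes around TET2, CXXC4 was the 1 called higher and NPNT, which encodes a matrix protein, the 1 called lower (-1.08), while the median was -0.03. Over chromosome 4, 16.1% of tested genes were higher and 11.6% lower.

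Of 9 measured genes of TET partners and cofactor supply 1 was higher and 2 lower, 33.3% in all, which is near the 29.0% of all tested genes. Isocitrate dehydrogenases make the 2-oxoglutarate that TET enzymes consume. IDH2, the mitochondrial form, had 38.0 ± 4.42 CPM in BARD1-expressing cells and 24.7 ± 1.67 CPM in control cells (SD, n = 3 each; log2 fold change 0.63 ± 0.087, edgeR adjusted p = 4.81e-06). IDH1, the cytosolic form, had 19.4 ± 2.51 CPM in BARD1-expressing cells and 24.2 ± 1.35 CPM in control cells (SD, n = 3 each; log2 fold change -0.32 ± 0.095, edgeR adjusted p = 0.0128). The call of IDH1 was lost without BARD1-expressing library 2 (adjusted p = 0.0679) or control library 2 (0.0705). OGT, the sugar transferase that binds TET2 and TET3, was lower (-0.20 ± 0.059, edgeR adjusted p = 0.014), a call lost without BARD1-expressing library 3 (adjusted p = 0.128).

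TDG (ENSG00000139372, chromosome 12, 103965804 to 103988874, plus strand) had 43.9, 35.6 and 38.9 CPM in BARD1-expressing libraries and 45.5, 44.9 and 47.1 CPM in control libraries. BARD1-expressing library 1 lay just under the lowest control, and library 2 had the lowest value. In TPM the groups overlapped, with 36.0 in BARD1-expressing library 1 and 35.4 in the lowest control library. By edgeR the difference was -0.22 ± 0.076 on the log2 scale, with a 95% interval of -0.38 to -0.07 (adjusted p = 0.0289). Against the mean of the controls the 3 BARD1-expressing libraries differed by -0.06, -0.36 and -0.24 on the log2 scale. The call was lost when any library other than BARD1-expressing 1 was left out (adjusted p = 0.0577 to 0.16) and in DESeq2 (0.0547), and the log2 fold change was -0.15 without BARD1-expressing library 2.

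Of 12 tested genes listed around base excision repair, 2 were lower and 10 not called, 16.7% called beside 29.0% of all tested genes. The list held GADD45A, GADD45B and the glycosylase genes UNG and SMUG1 beside genes that act after TDG. NEIL3, also listed, had no read in any library. GADD45B, reported to promote active demethylation and known as a stress gene, had 45.6 ± 2.07 CPM in BARD1-expressing cells and 63.4 ± 4.11 CPM in control cells (SD, n = 3 each; log2 fold change -0.47 ± 0.069, edgeR adjusted p = 9.30e-06). POLB, the gap-filling polymerase gene, was lower by a fold change whose call was lost in 8 of 15 alternatives (-0.23 ± 0.086, edgeR adjusted p = 0.0477). APEX1, which cuts the DNA backbone after TDG has removed the base, had 231 ± 12.02 CPM in BARD1-expressing cells and 245 ± 15.6 CPM in control cells (SD, n = 3 each) and was not called (edgeR adjusted p = 0.274).

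Among 8 proteins that read methylated CpG, 3 genes were lower and 5 not called, 37.5% called beside 29.0% of all tested genes, and 2 of the 3 lie on chromosome 18. MBD1 had 653, 1090 and 684 reads in BARD1-expressing libraries and 2229, 2103 and 2032 in control libraries, or 47.3 ± 3.56 CPM in BARD1-expressing cells and 92.6 ± 0.989 CPM in control cells (SD, n = 3 each). MBD1 gave a log2 fold change of -0.98 ± 0.064 (edgeR adjusted p = 3.01e-11). MBD2, a subunit of the NuRD repressor complex, had 39.0 ± 2.65 CPM in BARD1-expressing cells and 77.5 ± 6.85 CPM in control cells (SD, n = 3 each; log2 fold change -0.99 ± 0.074, edgeR adjusted p = 2.11e-10). Both lie on chromosome 18, where 170 of 228 tested genes (74.6%) were lower and the median log2 fold change was -0.66. The median of the 10 genes around MBD1 was -0.92 and of those around MBD2 -0.94, close to the 2 genes' own values. MBD4, a glycosylase with the same mismatch substrate as TDG, was lower as well (-0.23 ± 0.076, edgeR adjusted p = 0.0243), a call lost without BARD1-expressing library 2 (adjusted p = 0.150) or 3 (0.0626) or control library 3 (0.0931).

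Of 11 genes listed for the supply, use or recycling of S-adenosylmethionine, the methyl donor of all DNA methyltransferases, 5 were lower and 6 not called. That is 45.5% called beside 29.0% of all tested genes (12.4% lower), with a median log2 fold change of -0.08. The 5 are not all genes of supply. MAT2A, which makes the donor from methionine, had 252 ± 11.7 CPM in BARD1-expressing cells and 302 ± 6.50 CPM in control cells (SD, n = 3 each; log2 fold change -0.26 ± 0.050, edgeR adjusted p = 0.000297). AMD1, which commits the donor to polyamine synthesis (-0.21 ± 0.056, edgeR adjusted p = 0.00571), and MTAP, which salvages methionine (-0.23 ± 0.063, edgeR adjusted p = 0.008), were lower as well. The other called genes were MAT2B (-0.18 ± 0.059), a regulatory subunit, and MTRR (-0.20 ± 0.066), which reactivates methionine synthase. The call of MAT2B was lost in 4 of 15 alternatives and that of MTAP in 2, all with a library left out. AHCY, which removes the inhibitory product of methylation, averaged 319 ± 11.95 CPM in BARD1-expressing cells and 333 ± 7.59 CPM in control cells (SD, n = 3 each; edgeR adjusted p = 0.382).

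**Figure D4:**
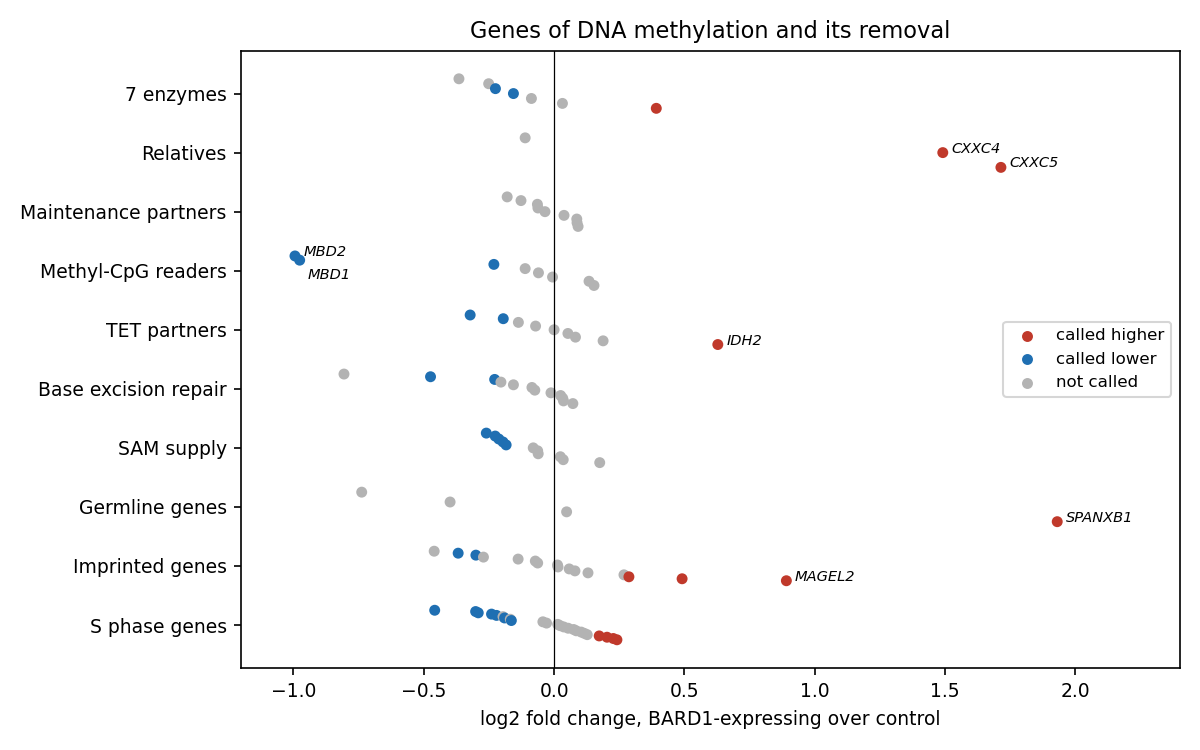
Log2 fold change (horizontal axis, BARD1-expressing over control) of every tested gene of the 7 enzymes and 9 related lists (rows), with called genes in red (higher) or blue (lower) and others in grey. Vertical position within a row only spreads the points. SPANXB1, CXXC4 and CXXC5 lie far to the right and MBD1 and MBD2 far to the left, while the 7 enzymes lie between -0.365 and 0.392.

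Germline genes known to be held off by promoter methylation stayed undetected for the most part in both groups. Of 28 listed, 19 had no read in any of 6 libraries and 24 had too few reads to be tested. PRAME, a tumor antigen gene, was well expressed at 154 ± 7.25 CPM in BARD1-expressing cells and 148 ± 1.97 CPM in control cells (SD, n = 3 each; edgeR adjusted p = 0.543). Of the 4 tested, 1 was called higher, SPANXB1, and 3 were not called, beside 29.0% of all tested genes called. With 4 genes this share is too coarse to set the list apart from the background. SPANXB1 had 11, 43 and 24 reads in BARD1-expressing libraries and 9, 7 and 10 in control libraries. Its log2 fold change was 1.93 ± 0.389 (edgeR adjusted p = 0.000507). XAGE1B had 203, 744 and 28 reads in BARD1-expressing libraries and 71, 878 and 971 in control libraries (log2 fold change -0.74 ± 1.24, edgeR adjusted p = 0.727), with a wide spread within both groups. SPANXB1 and XAGE1B have near-identical copies on the X chromosome, so their counts are uncertain.

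Imprinted genes are expressed mainly from the copy of a single parent, under the control of regions methylated on the chromosome of either parent. Of 16 tested, 3 were higher, 2 lower and 11 not called, 31.2% called, which is near the 29.0% of all tested genes. MAGEL2 had 13.4 ± 0.544 CPM in BARD1-expressing cells and 7.26 ± 0.405 CPM in control cells (SD, n = 3 each; log2 fold change 0.89 ± 0.114, edgeR adjusted p = 1.54e-06). PEG10 had 286 ± 17.6 CPM in BARD1-expressing cells and 369 ± 16.07 CPM in control cells (SD, n = 3 each; log2 fold change -0.37 ± 0.053, edgeR adjusted p = 8.35e-06). PLAGL1, a zinc finger factor, was lower (-0.30 ± 0.060, edgeR adjusted p = 0.000435) and PHLDA2 higher (0.29 ± 0.082, edgeR adjusted p = 0.0115), the call of PHLDA2 being lost without control library 1 (adjusted p = 0.0606) or 2 (0.107). CDKN1C, a cell cycle inhibitor gene, was the other higher one (0.49 ± 0.170, edgeR adjusted p = 0.0316). H19, IGF2, MEG3 and DLK1 had no read in any library.

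The genes whose levels ran most like each of the 7 over the 6 libraries were taken by Pearson's r of log2 CPM among 10379 other protein-coding genes that averaged 5 CPM or more. For DNMT1 the closest was SAMHD1, with r = 0.9999, and 417 genes reached r of at least 0.95. For DNMT3B the closest was NDUFA2 (r = 0.996) with 190 such genes, for TDG ANKRD12 (r = 0.996) with 156, and for TET2 ONECUT2 (r = 0.998) with 132. For TET1 it was DNAAF2 (r = 0.985) with 33, for TET3 ZNF408 (r = 0.994) with 26 and for DNMT3A NBPF19 (r = 0.961) with 3. All points share the 6 libraries and the difference between the groups, so these values describe the libraries only.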

How the data were processed

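RNA was sequenced from 3 BARD1-expressing and 3 control libraries after poly(T) selection and random hexamer priming, per the labels' protocols. The authors deposited raw read counts per gene, whole numbers with a different total in each library, beside a gene length in bases (another deposited value, not a measurement). The tools in the submitters' processing notes, with no role stated, are DESeq2 1.20.0, featureCounts 1.5.0-p3 and HISAT2 2.0.5, and the build is GRCh38. Both directional and non-directional libraries are named, so overlapping and antisense genes cannot be told apart.

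Columns were assigned by the descriptions in the labels. Date-like symbols of 27 genes were replaced by identifier. Genes were filtered with filterByExpr (15400 left), scaled by TMM and tested in R 4.3.3 with edgeR 4.0.16 (robust quasi-likelihood F test, group alone, 4 residual degrees of freedom, Benjamini-Hochberg over all tested genes). DESeq2 1.42.0 was an alternative. Log2 CPM used a prior count of 2. A count of 0 allows up to 3 counts, for counting error only. The labels call replicates biological and do not name separate cultures or transductions, so a p-value here reflects spread that may be technical. Pairs of libraries differed by more than sampling noise (chi-square per degree of freedom 3.41 to 8.11). On simulated counts for 15183 genes a 1.5-fold change was recovered in 76.8% of genes and a 4-fold change in 98.2%, with 6.32% false calls.

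The 7 genes and all lists were chosen with earlier results of these data known. Named genes are the 7, BARD1, their relatives, up to 4 called genes per related list by p, ERBB2 and EPCAM, genes that overlap the 7, and the genes most like each in level, of which the closest is given. HELLS, UHRF1, PCNA, AHCY, APEX1, PRAME, XAGE1B, NEIL3, NPNT, MTRR, CDKN1C, the silent genes and the neighbours were named after their values were seen.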

Additional observations from a re-analysis of the deposited data

How the results depend on the processing

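DNMT3B kept its direction and its call in all 15 alternatives, and BARD1 did so too (1.33 to 1.43). With 1 library left out, the log2 fold change of DNMT1 was -0.174 to -0.147, of DNMT3A -0.006 to 0.093, of TDG -0.309 to -0.154 and of EPCAM -0.060 to 0.020. DNMT3A changed sign without BARD1-expressing library 3 (-0.006) and without control library 3 (-0.004). TDG was not called by DESeq2 (-0.228, adjusted p = 0.0547). TET2 was called with DESeq2 size factors (-0.256), upper quartile scaling (-0.268), library totals (-0.261), protein-coding genes alone (-0.266) and without chromosome 18 and mitochondrial genes (-0.259), the last chosen after seeing the data, at adjusted p of 0.037 to 0.05. Scalings moved the median of all genes by under 0.1, and the causes were not tested.

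Replicate numbers are shared by the groups, but deviations of same-numbered libraries correlated at -0.112, -0.032 and -0.0089, so the numbers do not pair them. With the replicate block DNMT1 lost its call (-0.156, adjusted p = 0.0545), and 2296 genes were called higher and 1694 lower, against 2545 and 1915 without it. No library correlated best with its own number. Low read counts limit the precision for TET1, CXXC4 and most germline genes.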

Other observations

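Of the 10 tested protein-coding genes nearest to each of the 7, counted on both sides, the median log2 fold change stayed between -0.06 (TDG) and 0.08 (DNMT3A). Near DNMT3B, 4 of 10 neighbours were higher and 1 lower, beside 16.7% higher and 10.2% lower of all tested genes on chromosome 20. Among the higher were NOL4L (0.60, edgeR adjusted p = 1.93e-05) and COMMD7 (0.37, edgeR adjusted p = 0.00231), while MAPRE1, the next gene downstream, was at 0.02. This search was chosen after seeing the data.

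CXXC1, another CXXC gene, which lies beside MBD1 on chromosome 18, was lower (-1.17, edgeR adjusted p = 2.44e-11). SAMHD1, whose level ran closest to DNMT1, is a nucleotide-hydrolysing enzyme and had a log2 fold change of -0.19 (edgeR adjusted p = 0.0151).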
